A study of Mus musculus with 8 samples.

Results

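The sites described here are the GATA2 peaks of C3H10T1/2 cells, a multipotent mouse line from embryonic fibroblasts, able to give rise to muscle, cartilage, bone and fat cells. A peak is a stretch of genome where DNA recovered with an antibody against GATA2 was enriched in chromatin immunoprecipitation followed by sequencing (ChIP-seq). All 1557 peaks of the line's deposited list were taken, except 25 that lay in dense stretches of chromosomes 11 and 17. The remaining 1532 peaks were analysed, from 4002 peaks in the lists of both cell lines of the study. The other line was 3T3-L1, a mouse preadipocyte line. Each line had 2 libraries from GATA2 ChIP (antibody sc-9008x) and 2 input libraries made without antibody, from cells at passages 4 to 6. DNA of separate immunoprecipitations was pooled before sequencing, per the labels' protocols. Neither an agent nor an induction of differentiation is named for any library.

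One list stands for the whole line, so there is no replicate value, and the read depth behind a peak is unknown. The list gives chromosome, start and end alone, with no score. Intervals below are 95% exact Clopper-Pearson intervals and cover counting error over peaks only. Whether the line carries its defining markers could not be checked, because expression was not analysed here. Coordinates are those of mm10, counted from 1, and genes and sequences come from the RefSeq tables of GRCm38.p6, which is the same assembly. The annotation used gives gene boundaries without exons, so exon, intron and UTR positions are not stated.

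GATA2 is a zinc finger transcription factor that binds short DNA words with the core letters GATA, in which adenine or thymine stands before the core and adenine or guanine often after it. It maintains blood stem and progenitor cells and acts in endothelial cells, mast cells and neurons. In mesenchymal precursors it is known for holding back the conversion into fat cells, and it is found far from gene starts as well as at promoters.

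At gene starts the peaks and the letters of the GATA word can be read together. Promoter windows, here 250 bp before to 50 bp after a start, were at hand for 21045 starts of 17274 protein-coding genes. A peak overlapped 40 windows of 40 genes by at least 1 bp, which is 0.19% of the windows, and 37 peaks made these overlaps. The 4 GATA words AGATAA or TGATAA or AGATAG or TGATAG were searched on both strands, with overlapping words counted separately. The 10 stretches below are shown because the word and the peak fall on the same bases. They belong to the windows with the most bases under a peak among those with a word upstream of the start and outside annotated genes. Each runs 5′ to 3′ in the direction of the gene, ends before the start, and has the GATA word in capitals. A word that reads TTATCT or TTATCA or CTATCT lies on the opposite strand.
BC003965, chr17:25184369-25184494 (+ strand): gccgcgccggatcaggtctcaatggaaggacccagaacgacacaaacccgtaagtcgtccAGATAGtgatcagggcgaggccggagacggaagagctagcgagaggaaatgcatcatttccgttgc
Stk40, chr4:126103791-126103916 (+ strand): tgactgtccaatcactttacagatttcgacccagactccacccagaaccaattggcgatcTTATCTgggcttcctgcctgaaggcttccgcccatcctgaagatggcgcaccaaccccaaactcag
Sumf2, chr5:129846796-129846921 (+ strand): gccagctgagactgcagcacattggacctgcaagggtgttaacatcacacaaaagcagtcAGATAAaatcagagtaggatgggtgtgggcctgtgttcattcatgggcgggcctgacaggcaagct
Irf9, chr14:55603918-55603984 (+ strand): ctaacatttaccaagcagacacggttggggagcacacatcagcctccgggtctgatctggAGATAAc
Ddx24, chr12:103425859-103425984 (- strand): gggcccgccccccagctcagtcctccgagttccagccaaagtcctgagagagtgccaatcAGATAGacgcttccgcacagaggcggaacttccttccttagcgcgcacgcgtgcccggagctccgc
Arid1a, chr4:133756789-133756914 (- strand): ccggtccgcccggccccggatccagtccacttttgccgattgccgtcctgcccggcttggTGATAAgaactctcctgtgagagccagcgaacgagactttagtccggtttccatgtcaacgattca
Mecom, chr3:30509760-30509850 (- strand): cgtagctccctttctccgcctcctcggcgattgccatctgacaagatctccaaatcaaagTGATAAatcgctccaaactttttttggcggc
Ndufa9, chr6:126849177-126849302 (- strand): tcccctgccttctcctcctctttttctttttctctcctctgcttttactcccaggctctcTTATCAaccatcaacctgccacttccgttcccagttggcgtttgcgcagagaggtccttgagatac
Vgll3, chr16:65815018-65815143 (+ strand): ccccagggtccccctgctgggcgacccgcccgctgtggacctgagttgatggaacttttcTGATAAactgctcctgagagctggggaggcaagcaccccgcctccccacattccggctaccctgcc
Zfp763, chr17:33033420-33033545 (- strand): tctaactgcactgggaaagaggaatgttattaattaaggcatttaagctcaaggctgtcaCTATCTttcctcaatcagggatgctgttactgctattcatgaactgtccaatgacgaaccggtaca

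The word lay under the peak in all 10 stretches, with up to 60 bases on either side of it shown. In Stk40, which encodes a kinase-like protein, the word began 106 bp upstream of the start and the peak ran from 126103716 to 126103970. In Irf9, whose product works in the interferon response complex ISGF3, it began 7 bp upstream, and the peak (55603854 to 55604116) was centred on the start itself. The Arid1a word, in front of a gene for a subunit of the BAF chromatin remodelling complex, began 85 bp upstream. In Mecom, a zinc finger factor gene of blood stem cells, the word began 31 bp upstream under a peak of 169 bp. The others stood before genes of varied roles. Among them are Ddx24, an RNA helicase gene, Ndufa9, a gene of respiratory complex I, Vgll3, a gene for a TEAD cofactor, and Sumf2, a sulfatase modifying factor gene.

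Of the 40 windows, 19 held a GATA word (47.5%, interval 31.5 to 63.9), beside 25.8% of all 21045 windows. In 18 of the 19 the word, or 1 of its words, lay whole under the peak. The 6.242 kb of window bases under peaks held 18 words, or 2.88 per kb. The 5.758 kb of the same windows outside the peaks held 3 words, or 0.521 per kb, and all windows together held 1.13 per kb. At the same positions relative to the start, all windows had an average that would give 6.81 words, against the 18 seen. The share of G and C bases was 58.9% under the peaks, 58.0% in the rest of these windows and 56.4% over all windows. Within these windows the words thus stood mostly under the peaks, at a like base composition. The count is small, and 6 of the 40 windows belong to 3 pairs of neighbouring genes that a single peak reaches: Ift20 with Tnfaip1, Cox11 with Stxbp4, and Arv1 with Ttc13.

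For the 18 words that lay whole under a peak, which itself bounds the distance, the place within the peak was measured. The distance from the centre of a word to the centre of its peak had a median of 18.5 bp (quartiles 5.0 and 33.0, range 1 to 130), and 11 lay within 25 bp. No reference value was computed for these distances. The word in Mecom was 1 bp from the centre of its peak, that in Sumf2 was 2 bp from it, and those in Irf9, Ddx24 and BC003965 were each 4 bp from it. In Cyb5b, a cytochrome b5 gene, the word lay 22 bp past the start and 130 bp from the centre, at the edge of the peak. The other 21 windows held none of the 4 words, among them Cstad, Psat1, Got1, Chek2 and Tcf3. No match says only that these letters are not in the window.

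**Figure D1:**
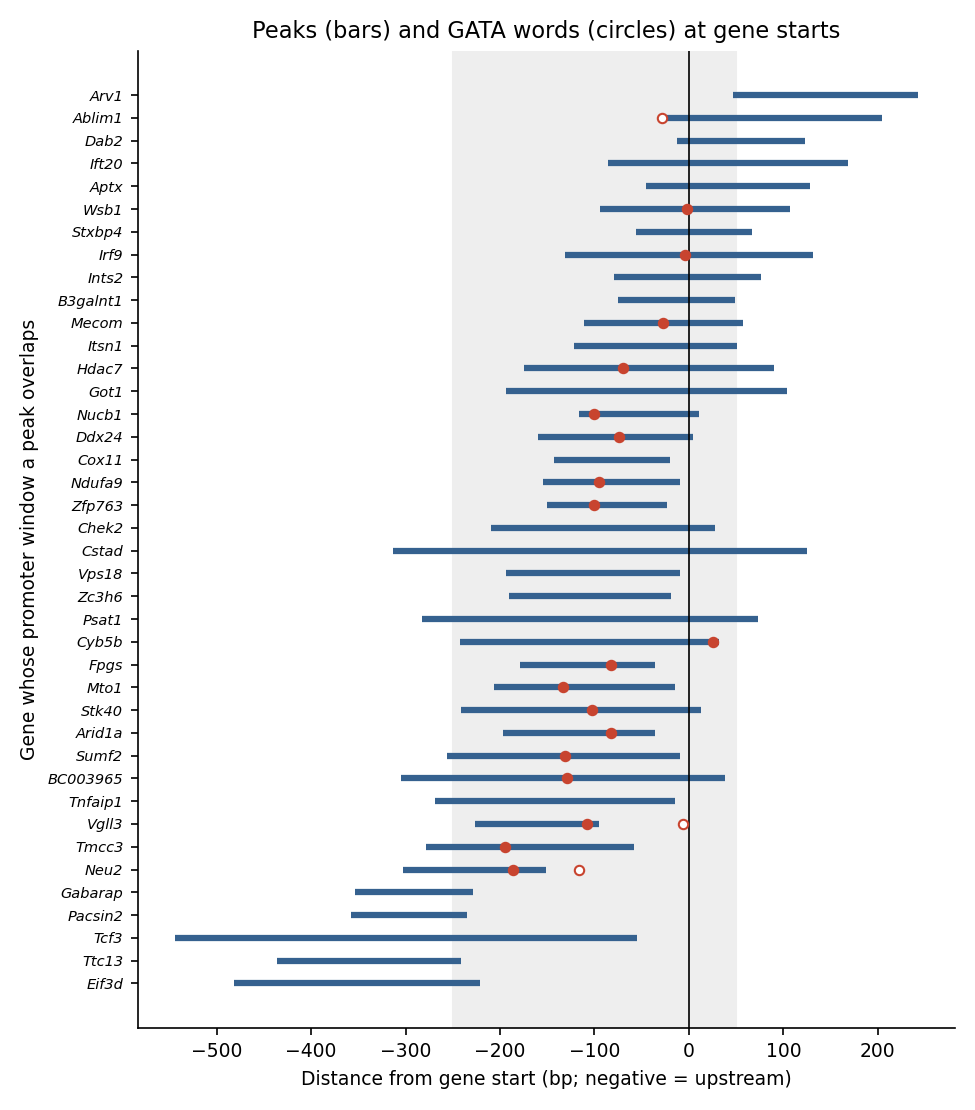
Each row is 1 of the 40 genes whose promoter window (grey, 250 bp before to 50 bp after the start) a C3H10T1/2 peak overlaps, the bar is the peak and the horizontal axis is the distance from the start in bp. Filled circles are GATA words under the peak (18) and open circles are words in the window outside it (3).

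Other words were counted in the same windows as a description. The AP-1 word TGACTCA was in 4 of 40 windows (10%, 2.79 to 23.7) and in 4.69% of all windows, and the E-box CAGCTG in 9 (22.5%, 10.8 to 38.5) and 15.7%. GGAATG, a TEAD word, was in 8 (20%, 9.05 to 35.7) and 13.5%. The E-box CACGTG was in 1 of 40 against 7.91%, and the Runx word TGTGGT in 3 of 40 against 14.8%. For each of these words the interval included the share over all windows, and for the GATA words it did not. The GATA count pools 4 words and each other count is of 1 rarer word in 40 windows. The intervals therefore do not compare the words with each other, and the difference between words was not tested. None of these words contains a GATA word.

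The peaks were crowded just upstream of gene starts and otherwise far away. Of the 1480 peaks on chromosomes with known starts (all but chromosome 18, with 52 peaks), 56 had their centre within 1 kb of a start (3.78%, 2.87 to 4.89). That stretch makes up 1.46% of the bases, so the peaks were 2.59 times as dense there as over the chromosomes. Within 5 kb the ratio was 1.30, with 130 peaks, and within 10 kb it was 1.04, with 192. The crowding was one-sided. Of the 56 peaks, 39 lay upstream and 17 downstream of the start, and 25 lay in the last 250 bp before it against 9 in the first 250 bp after it. The median distance to a known start was 72.1 kb, and 850 peaks (57.4%) lay within 100 kb, where the ratio was 1.10.

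**Figure D2:**
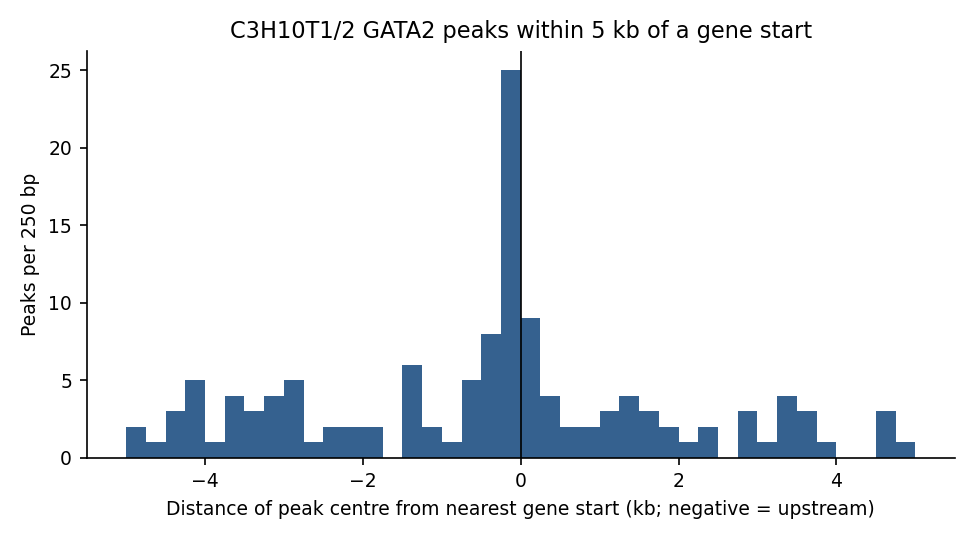
Number of peak centres in steps of 250 bp against the distance from the nearest known gene start in kb, upstream to the left. The tallest bar, with 25 peaks, is the last step before the start, and the next step, just after the start, holds 9.

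Several peaks at the very boundary of a gene were those of metabolic and housekeeping genes. The peak at Got1, which encodes the cytosolic aspartate aminotransferase, was 299 bp wide and centred 45 bp before the start. At Psat1, a gene of serine synthesis, the peak was 357 bp wide and centred 105 bp before the start. Both windows had no GATA word. The peak of Ints2, an Integrator subunit gene, was centred 2 bp before the start, and that of Wsb1, a ubiquitin ligase substrate receptor gene, 6 bp after it. At Tcf3, a gene for E proteins (basic helix-loop-helix factors), the peak was 490 bp wide and centred 300 bp before the start, and it was the widest of the 85 peaks within 1 kb of any gene boundary. Of the 40 window overlaps, 24 were by a peak that also overlaps a 3T3-L1 peak, as 534 of the 1532 peaks do.

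Away from the starts, peaks followed the share of bases more closely. Gene bodies held 662 peaks (43.2%, 40.7 to 45.7) and make up 39.4% of the bases. Inside genes and over 1 kb from a boundary lay 623 (40.7%) on 37.8% of the bases. Outside genes, 100 peaks lay 1 to 10 kb from the nearest protein-coding gene (6.53%, 5.34 to 7.88), on 8.26% of the bases, and 391 lay 10 to 100 kb away (25.5%) on 22.3%. Deserts over 100 kb from any protein-coding gene held 333 peaks (21.7%, 19.7 to 23.9) and 28.7% of the bases. With genes of every kind counted, 72 peaks (4.7%) lay that far from a gene. The share of bases that far from genes of every kind is not given here, so the 4.7% has no base share beside it. By protein-coding genes, the near flank and the deserts were the classes below their share of bases. These shares include bases where no peak could be called, such as gaps in the assembly, and the effect of this was not tested. Across all peaks the median distance to a gene boundary was 44.1 kb, with quartiles of 14.7 and 121 kb.

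Within genes the first part had the most peaks. Of 510 peaks in genes with a known direction, 125 lay in the first of 5 equal parts of the gene (24.5%, 20.8 to 28.5), then 105, 103, 87 and 90. An even spread would put equal numbers in each. The interval of the fourth part (17.1%, 13.9 to 20.6) did not overlap that of the first, and those of the other 3 did.

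Genes with peaks in the body were long. A peak lay in the body of 560 of 21631 protein-coding genes (2.59%), in the body or within 10 kb of 785 (3.63%) and within 100 kb of 2602 (12%). As nearest gene of a peak, 1071 genes were counted (4.95%). The median length was 17.3 kb over all genes, 133 kb over genes with a body peak and 326 kb over the 33 genes with 3 or more. A body peak was found in 0.168% of genes of up to 10 kb and in 19.9% of genes over 300 kb. Per Mb of body the density was 0.402 peaks in the shortest class, 0.902 in genes of 100 to 300 kb and 0.574 in genes over 300 kb. The counts below are therefore read beside gene length.

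The gene with the most peaks within 100 kb was Cdk14 (chr5:4803384-5380251), which encodes a cyclin-dependent kinase that acts on Wnt receptors. It had 7 peaks within 100 kb, 5 of them in its body of 577 kb, spread from 10.3 to 95.9% of the way along the gene, and 1 more 1.29 kb outside it. Pde4d, a gene for a cAMP phosphodiesterase (chr13:108654177-109955969), also had 5 body peaks. One stood at 12.7% of the gene's length, a pair at 50.4 and 50.8%, and another pair at 89.8%. Gmds, which encodes an enzyme of GDP-fucose synthesis (chr13:31819583-32338762), had 5 body peaks too, all in the first 30.6% of the gene. Of the Gmds peaks, 3 stood within 2.57 kb (32267241 to 32269810), with widths of 133, 283 and 545 bp, and none of the 5 overlapped a 3T3-L1 peak.

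A further 9 genes had 4 body peaks. Runx1 (chr16:92601466-92826074), a master regulator of blood stem cell formation, had them at 92645784, 92653903, 92680243 and 92710209 with widths of 244, 387, 188 and 239 bp, and the last overlapped a 3T3-L1 peak. Its density was 1.78 peaks per 100 kb of body. Galk2, an N-acetylgalactosamine kinase gene (chr2:125859109-125984298), was denser, with 4 peaks in 125 kb (3.20 per 100 kb) that stood in 1 run of 25.4 kb, and no 3T3-L1 peak. These 4 peaks are also 4 of the 5 counted for the neighbouring gene Fam227b. Among genes with 3 or more body peaks, Lima1, an actin-binding protein gene, came next in density, with 3 peaks (3.09 per 100 kb). Lama4, which encodes a laminin chain of vessel basement membranes (chr10:38965515-39110188), followed with 2.76 per 100 kb, and 3 of its 4 peaks lay within 13.3 kb. Adamts16, a matrix protease gene, had 2.63.

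The remaining genes with 4 body peaks were longer. Rarb, the retinoic acid receptor beta gene (chr14:16430839-17082331), had a pair whose centres were 229 bp apart and 2 more peaks over 300 kb away from it. Akap6, a gene for a kinase anchoring protein of muscle, had 3 of its 4 peaks within 11.2 kb, and Celf2, a splicing regulator gene, had 3 within 34.8 kb. In Dgki, a diacylglycerol kinase gene, 3 peaks stood within 14.6 kb near the end of the gene, at 88.5 to 91.6% of its length. Adgrl3, which encodes the adhesion receptor latrophilin 3, had its 4 peaks at 10.9, 31.7, 42.7 and 73.1% of its length. In Lrmda all 4 lay between 55.5 and 77.5%. Peaks of a gene were thus gathered in a stretch in some genes and spread in others.

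**Figure D3:**
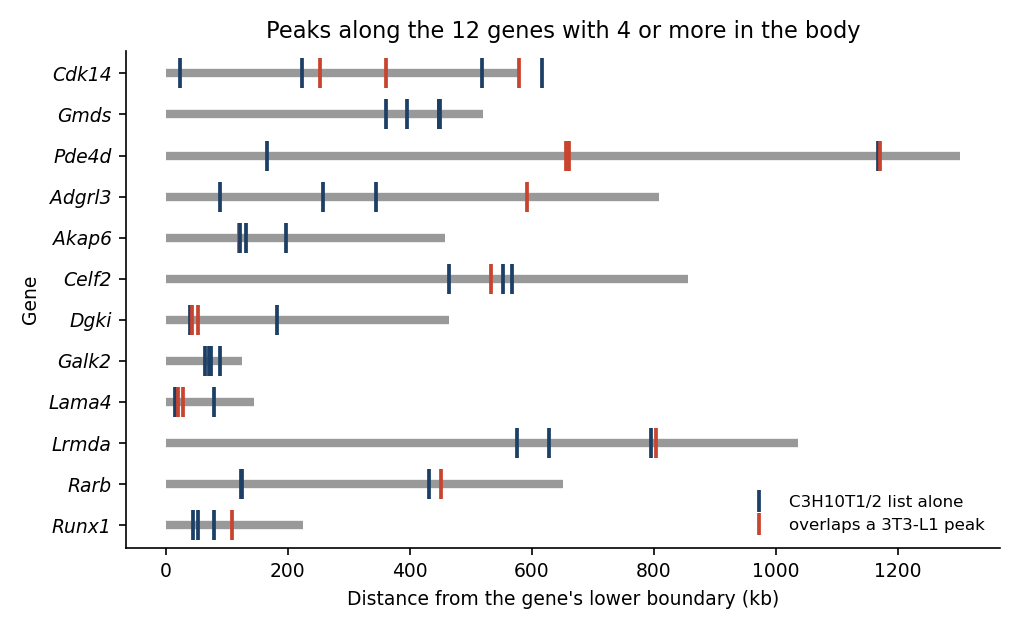
Positions of C3H10T1/2 peaks (ticks) along the 12 genes with 4 or more body peaks (grey bars, kb from the lower coordinate of the gene). Red ticks overlap a 3T3-L1 peak. The ticks of Gmds, Galk2 and Runx1 are gathered in part of the gene, and those of Cdk14 and Adgrl3 are spread along it.

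Outside genes, some places had many peaks without a body peak. Around a group of chemokine genes on chromosome 5, several of which draw in neutrophils, 6 peaks from 90754058 to 90832744 were each within 100 kb of Cxcl5, Ppbp, Pf4, Cxcl3 and Cxcl15. The closest, at 90758229, was 0.94 kb below Cxcl5, and 3 stood 1.58 to 4.80 kb above Cxcl15. Those 6 peaks make the same count at 5 genes. Ccdc34 on chromosome 2 also had 6 within 100 kb, 2 in its body, and of the other 4, 2 lay in the body of its neighbour Lgr4, the R-spondin receptor gene. The longest run of closely spaced peaks, 5 from 163112611 to 163142019 on chromosome 1, lay 26.9 kb from Mroh9.

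The marker and pathway genes were taken from 31 lists with 821 matched genes, whose median length of 28.0 kb is above that of all genes. A peak lay within 100 kb of 171 of them (20.8%, beside 12% of all genes) and in the body or within 10 kb of 73 (8.89%, beside 3.63%). In 25 of the 31 lists the share within 100 kb was above 12%. No list has a test here, and for lists of long genes the fitting base is higher: 20.6% of genes of 100 to 300 kb, and 11.3% of genes of 10 to 30 kb, had a peak within 100 kb.

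**Figure D4:**
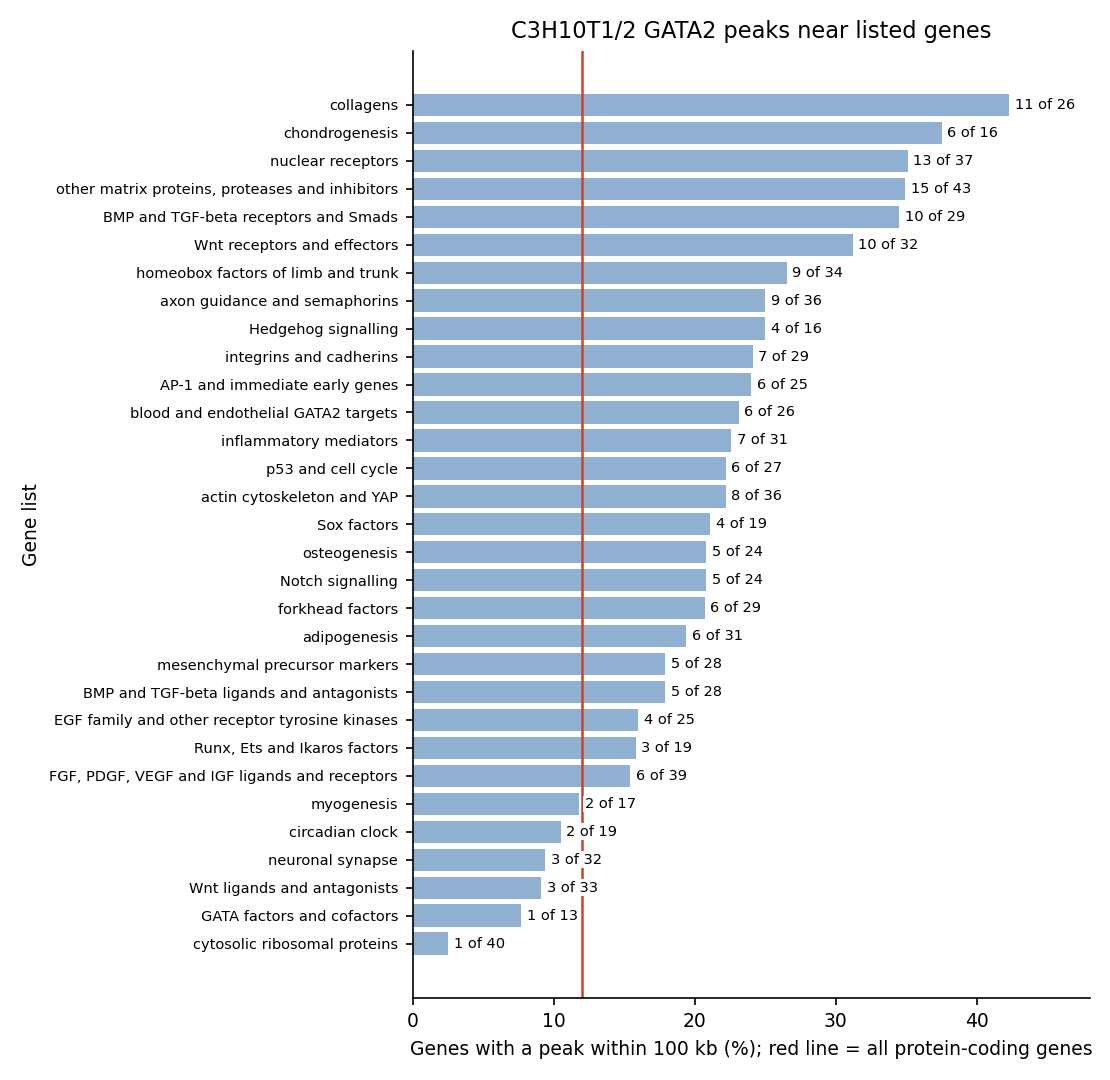
Share of the genes of each list with a C3H10T1/2 peak within 100 kb, in percent, with the counts beside the bars and the 12% of all protein-coding genes as a red line. With all peaks, collagens (11 of 26) have the highest share and ribosomal protein genes (1 of 40) the lowest.

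Collagen genes, which encode the fibrous proteins of the matrix, had the highest share over all peaks, 11 of 26 (42.3%), at a median length of 118 kb. This rank did not hold for wider peaks: with peaks of at least the median width alone, 1 of 26 collagen genes had a peak within 100 kb, beside 1489 of all 21631 genes. The cell cycle and p53 list fell likewise, from 6 to 1 of 27. The 11 genes rest on 9 peaks, since 1 peak reaches both Col4a1 and Col4a2, 1 both Col4a5 and Col4a6, and 1 both Col3a1 and Col5a2. Body peaks lay in the network-forming genes Col4a2 (chr8:11371509-11371670), Col4a6 and Col8a1, and in Col11a1, Col14a1 and Col18a1. Other matrix genes had 15 of 43 within 100 kb (34.9%) but 3 of 43 in the body or within 10 kb (6.98%): Fbln5, an elastic fibre gene, with 2 body peaks, and the proteases Mmp2 and Adamts12. Dcn, the decorin gene, had 3 peaks at 12.6, 52.6 and 82.1 kb.

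In the BMP and TGF-beta pathways, 10 of 29 receptor, Smad and target genes had a peak within 100 kb (34.5%) and 8 had one in the body or within 10 kb (27.6%). Bmpr1a, the only receptor gene among the 8, had its peak 4.95 kb upstream (chr14:34508222-34508357). Body peaks lay in the signal transducers Smad3 and Smad5, in the inhibitory Smad7, in the ubiquitin ligase gene Smurf2, which acts on the pathway, and in Ski, a repressor of Smads. The target genes Id1 and Id3, whose products block basic helix-loop-helix factors, had peaks at 4.2 and 3.45 kb. Ligands and antagonists had 5 of 28 (17.9%), with body peaks in Bmp6, Fstl1 and Ltbp1 and 1 peak 0.486 kb from Ltbp2. Their median length was 15.3 kb, against 61.7 kb for the receptor, Smad and target genes, and the difference between these lists was not tested.

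In the Wnt pathway, which controls precursor growth and fate, receptors and effectors had 10 of 32 within 100 kb (31.2%) and 5 of 32 near (15.6%), the ligands and antagonists 3 of 33 (9.09%) and 2 of 33 (6.06%). Here too the first list is of longer genes, with a median of 67.3 kb against 26.7 kb, and the difference was not tested. Body peaks lay in the receptor genes Ror1 and Lgr4 and the nuclear effectors Tcf7l1, with 2, and Tcf7l2. The adaptor gene Dvl2 had a peak at 9.51 kb, which is also the peak at the edge of the Gabarap window. Among the secreted factors, the antagonist gene Dkk3 and the R-spondin gene Rspo2 had body peaks, and Rspo3 had a peak at 18.6 kb.

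In the other signalling lists the shares were 20.8% for Notch (5 of 24), 25% for Hedgehog (4 of 16), 15.4% for FGF, PDGF, VEGF and IGF genes (6 of 39) and 16.0% for EGF family and other kinase receptors (4 of 25). The Notch target gene Hes1, a repressor that keeps progenitors from differentiating, had a peak 0.627 kb away (chr16:30068327-30068518), and the receptor gene Notch1 and the coactivator gene Maml3 had body peaks. The Hedgehog co-receptor gene Cdon had a body peak, and Gas1, another co-receptor gene, had 3 peaks at 49, 65.3 and 65.5 kb. Nrp1, a receptor for VEGF and semaphorins, had 2 body peaks, and Pdgfd, Egfr and Nrg1 had 1 each. Of the axon guidance genes 9 of 36 had a peak within 100 kb (25%, median length 155 kb), with body peaks in Sema3a, Sema3f, Slit3 and Epha4 and 1 peak at 4.16 kb from Sema3d.

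Genes of the lineages open to these cells had shares of 37.5% for cartilage (6 of 16), 20.8% for bone (5 of 24), 19.4% for fat (6 of 31) and 11.8% for muscle (2 of 17). Sox6, a cartilage factor gene, had 2 body peaks (chr7:115615742-115615925 and chr7:115625313-115625498), and Sox9, the main cartilage regulator, had 1 at 63.0 kb. Runx2, which commits cells to bone, had 1 body peak. Of the fat genes, Rxra, the partner receptor of Pparg, had 1 body peak and 1 at 1.19 kb, and Ebf1, an early fat and B cell factor gene, had 1 body peak. Pparg itself, the main driver of fat cell formation, had its only peak 43.9 kb upstream. Myod1, Myog and the other muscle genes except Mef2a and Mef2c had none. For Mef2a and Mef2c the peaks stood at 67.0 and 35.1 kb.

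Among transcription factors, nuclear receptor genes had 13 of 37 (35.1%) within 100 kb and 4 of 37 (10.8%) near: Rara, Rarb, Rxra and the mineralocorticoid receptor gene Nr3c2. All 3 near genes other than Nr3c2 belong to retinoid signalling. Forkhead genes had 6 of 29 (20.7%), Sox genes 4 of 19 (21.1%), Runx, Ets and Ikaros genes 3 of 19 (15.8%) and homeobox genes 9 of 34 (26.5%). For the homeobox list 6 of the 9 were Hoxa genes reached by 1 peak of 152 bp (chr6:52168270-52168421), and Meis2 and Pbx3, Hox cofactor genes, had body peaks. GATA factor and cofactor genes had 1 of 13 (7.69%): Trps1, an atypical GATA repressor gene, had 2 body peaks (chr15:50665746-50665972 and chr15:50704079-50704233). Gata2 itself and the other 5 GATA genes had none within 100 kb.

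Blood and endothelial genes known as GATA2 targets had 6 of 26 (23.1%). Runx1, Mecom and the adhesion gene Pecam1 had body peaks, 4 in Runx1 and 2 in Mecom beside the one at its start. Eng, a TGF-beta co-receptor gene of endothelium, had 2, at 11.6 and 25.2 kb. The peak at 11.6 kb is also the one in the promoter window of Fpgs. That at 25.2 kb lay within 1 kb of the boundary of another gene. Of mesenchymal precursor markers 5 of 28 had a peak (17.9%). Among these Prrx1, a homeobox gene of limb mesenchyme, had 4, the nearest 4.61 kb upstream (chr1:163319632-163319874). Integrin and cadherin genes had 7 of 29 (24.1%). They include Cdh11, the mesenchymal cadherin gene, with 1 body peak, and Cdh1, the epithelial cadherin gene, with 2.

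Actin and YAP genes had 8 of 36 (22.2%), with body peaks in Myh9, Tpm1, Vcl and Cald1, which encode a non-muscle myosin, a tropomyosin, vinculin and caldesmon. The Myh9 peak was 436 bp wide (chr15:77820541-77820976). AP-1 and immediate early genes had 6 of 25 (24.0%), of which Mafk alone had a peak in the body or within 10 kb, while the 2 peaks of Jun were 46.4 and 48.6 kb upstream. Inflammatory mediators had 7 of 31 (22.6%), 3 of them chemokine genes of chromosome 5 with shared peaks, and Csf1, the macrophage growth factor gene, had 4 peaks, 3 of them 33.2 to 36.3 kb upstream. Cell cycle and p53 genes had 6 of 27 (22.2%), with a body peak in Cdkn2a, whose products restrain CDK4 and MDM2, and a peak at the start of Chek2, the checkpoint kinase gene.

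The lists at or below the 12% of all genes were muscle, the circadian clock (2 of 19, 10.5%), neuronal synapse genes (3 of 32, 9.38%), Wnt ligands and antagonists, GATA factors and ribosomal protein genes (1 of 40, 2.50%). The clock gene Per2 had a body peak. The synapse genes are long, with a median of 110.5 kb, and the ribosomal genes short, with a median of 3.51 kb. The only ribosomal gene reached was Rpl11, 87.0 kb from the peak that lies 3.45 kb from Id3.

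Gene families, taken as genes whose symbols share the letters before the first digit, gave 281 families of at least 10 genes, of which 55 had no peak within 100 kb of any member. By number the largest were the solute carriers Slc (53 of 375, 14.1%), Tmem (28 of 238, 11.8%), the zinc finger genes Zfp (25 of 397, 6.30%) and Fam (22 of 175, 12.6%), beside 12% of all genes. The olfactory receptors Olfr had 12 of 1110 (1.08%). Col genes had 15 of 44 (34.1%) on 15 peaks. Phosphodiesterase genes Pde had 9 of 26 (34.6%) on 14 peaks, 5 of them in the body of Pde4d. Body peaks also lay in Pde1a, Pde3b, Pde8b and Pde6a. Adamts genes had 6 of 19 (31.6%) on 11 peaks, Sema genes 7 of 20 (35.0%) on 6 and Cdk genes 5 of 26 (19.2%) on 12, of which Cdk14 has 7. Median lengths were 114 kb for Col and for Adamts, 106 kb for Pde, 34.4 kb for Sema, 21.4 kb for Cdk and 0.95 kb for Olfr. Of all genes of 100 to 300 kb, 20.6% had a peak within 100 kb, and of those of up to 10 kb, 8.56%. No family has a test here.

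The highest shares, of 100%, came from genes in tandem that a single peak reaches. All 12 Pcdhga genes had the same 1 peak, and all 11 Hoxa genes had 1 peak, which lay 0.713 kb from Hoxa3 and 90.5 kb from Hoxa13. The next highest shares rest on more than 1 peak: Cxcl genes had 7 of 12 (58.3%) on 7 peaks and Tnfsf genes 6 of 11 (54.5%) on 4 peaks. Over all peaks 333 reached no gene within 100 kb, 470 reached 1 and 729 reached 2 or more, up to 25.

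MicroRNA genes were near peaks in 9 of 1005 hairpins at 10 kb (0.896%) and 152 at 100 kb (15.1%). The shares were 3.63% and 12% over all protein-coding genes, and 0.891% and 8.56% over those of up to 10 kb. The share of hairpins at 10 kb was thus near that of short genes, and the difference at 100 kb was not tested. MicroRNAs are short RNAs that pair with messages through their seed, bases 2 to 8. The mature sequences of the best-known ones near peaks follow, from RefSeq, 5′ to 3′, with the seed in capitals.
miR-21a-5p, chr11:86584120-86584141 (- strand): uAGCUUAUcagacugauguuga
miR-22-3p, chr11:75463772-75463793 (+ strand): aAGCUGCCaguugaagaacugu
miR-138-5p, chr8:94324312-94324334 (+ strand): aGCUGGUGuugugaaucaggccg
let-7a-5p, chr13:48538239-48538260 (- strand): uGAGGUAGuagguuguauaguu
let-7f-5p, chr13:48537889-48537910 (- strand): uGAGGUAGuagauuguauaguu
let-7d-5p, chr13:48536078-48536099 (- strand): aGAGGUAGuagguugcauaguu

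The Mir21a hairpin, inside the gene Vmp1 on chromosome 11, had a peak 3.20 kb on its 5′ side, in the same gene (86587295 to 86587420). The peak of Mir22 was 4.88 kb on its 5′ side (75458777 to 75458903), outside genes, and that of Mir138-2 was 1.81 kb on its 3′ side, within Nup93. Mir3075, in Zmiz1, was closest at 1.15 kb. A single peak of 282 bp (chr13:48548329-48548610) stood 10.2, 10.6 and 12.4 kb on the 5′ side of Mirlet7a-1, Mirlet7f-1 and Mirlet7d, whose 5p products share the seed GAGGUAG. Mir582, inside Pde4d, was 9.62 kb from 1 of the body peaks of that gene. Mir31 had 4 peaks within 100 kb, the nearest at 17.6 kb. The other hairpins within 10 kb were Mir3966, Mir7-1, Mir8093 and Mir339, at 3.35 to 9.34 kb.

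Peaks were unevenly spaced. The distance between the centres of neighbouring peaks had a median of 518.5 kb (quartiles 101.8 and 1952 kb) and a mean of 1615 kb. Even spacing would put every distance at 1705 kb, which compares with the mean. The median for randomly placed peaks was not computed. Of 1512 such distances 51 were at most 1 kb, 173 at most 20 kb and 375 at most 100 kb. A neighbour within 20 kb was found for 309 peaks (20.2%), and 1 within 1 kb for 100 (6.53%). The closest centres were 216 bp apart, on chromosome 18 near Fzd8, and the next 229 bp in Rarb, 230 bp near Adgra3, 264 bp near Tprg and 267 bp near Ebf1. Neighbouring peaks were never separated by fewer than 57 bp, and 37 pairs of centres were within 0.5 kb. Whether such close pairs are 1 site split by the peak calling was not tested.

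Joining peaks with gaps of at most 20 kb from edge to edge gave 1221 single peaks, 105 pairs and 32 runs of 3 or more with 101 peaks (6.59%). Of the 32 runs, 12 overlapped a gene anywhere in their span and 20 did not. By peak centres, 38.1% of peaks in runs of 3 lay inside genes. The share was 30.95% in pairs, 45.95% for single peaks and 43.2% over all peaks, and the differences were not tested. The spans of the runs went from 0.762 kb in Kcnip4 to 36.3 kb on the side of Adamts5. Runs of 4 lay in Galk2, 222 kb from Adamts5 (86123034 to 86159321) and 73.6 kb from Qpct (79163957 to 79172035). Runs of 3 included those 33.2 kb from Csf1, 48.8 kb from the Hedgehog co-receptor gene Gas1, 321 kb from Cxcl12, the stromal chemokine gene, and 40.5 kb from Penk. Of the peaks in runs of 3, 33.3% overlapped a 3T3-L1 peak, as did 35.3% of single peaks.

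Widths ran from 95 to 809 bp with a median of 184 bp (quartiles 147 and 239), and 145 peaks were over 300 bp. The single most common width was 124 bp, with 98 peaks (6.40%), against 20 for the next most common, and 44 peaks were narrower than 124 bp. Medians by position were close, at 192 bp within 1 kb of a boundary, 181 bp inside genes and 177 bp in deserts. Peaks in runs of 3 or more were over 300 bp in 16.8% of cases, pairs in 11.4% and single peaks in 8.52%. The width of a peak depends on depth and on the calling, which are not known here, and their part in these widths was not tested.

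**Figure D5:**
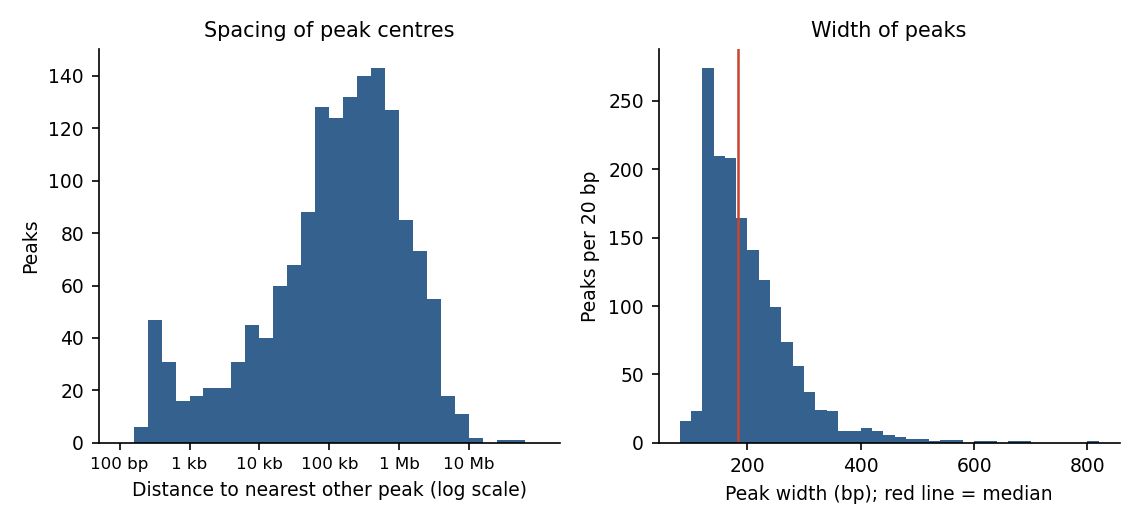
Left, number of peaks by the spacing of nearest peak centres on a log scale, with a main hump between 100 kb and 1 Mb and a small one under 1 kb. Right, number of peaks by width in steps of 20 bp, with the median of 184 bp in red and the tallest bar at the step that holds 124 bp.

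Of the 10 widest peaks 8 lay outside genes, as did 56.8% of all peaks. The widest, of 809 bp (chr1:79577121-79577929), lay 29.3 kb from Ap1s3, a gene of vesicle coat adaptors. Others among the 10 widest were 675 bp, 569 kb from Tox, and 633 bp, 304 kb from Ebf1. The other 2 were inside genes, in Calcrl, the receptor gene for adrenomedullin and CGRP (619 bp), and in Gmds (545 bp). At Ebf1 the same stretch also holds the pair of centres 267 bp apart, 272 kb from the gene. The peaks farthest from any protein-coding gene lay 1038 to 1271 kb from Flrt2, Nr2f1, Cited2, Epha7 and Arrdc3, which was the nearest gene to each in that order from far to near.

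Chromosomes differed in density around 0.586 peaks per Mb over all. Chromosome 13 had the most, 116 peaks or 0.989 per Mb, then chromosome 15 with 0.924 and chromosome 11 with 0.886. Chromosome 7, with 14 genes per Mb, had 46 peaks or 0.317 per Mb, the lowest among autosomes. Chromosome X had 15 peaks (0.979% of all, 0.549 to 1.61) on 6.53% of the bases, or 0.0879 per Mb. A stretch of 42.5 Mb of the X with 222 protein-coding genes held none (10734970 to 53225221). The 3T3-L1 list had 60 peaks on the X, or 0.352 per Mb, where its own density over all chromosomes was 0.932. That density includes chromosome 10, which held 574 of its 2434 peaks, at 4.5 per Mb. The difference between the lists on the X was not tested. How many X chromosomes and which autosome copies the line carries was not stated in the labels.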

How the data were processed

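GATA2 ChIP and input libraries of C3H10T1/2 cells were analysed through 1 deposited list of peak positions, with no score. The submitters' processing notes name mm10 as the build and, as tools, MACS2, bedtools, SAMtools, Bowtie2 and CASAVA 1.8. Their settings, the peak threshold, the use of input, the pooling of libraries and any removal of peaks are not given in the sources used here, and each can change the number and width of peaks. The read depth is unknown.

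Python 3 scripts (numpy, pandas, scipy) placed each peak by its centre against 21631 protein-coding genes. Base shares were read from positions every 100 bp between the first and last gene of each chromosome, without removing gaps in the assembly. Starts and promoter windows lack chromosome 18 and part of the genes of other chromosomes, and cover 17274 of the 21631 genes. Counts were checked on simulated peaks at known places. Peaks overlapping chromosome 11 from 3184453 to 3199962 or chromosome 17 from 39843356 to 39848806 were left out. The word counts at matched positions and distances to peak centres were added after seeing the data. No test was made, since 1 list has no replicate. The members and the gene lists were chosen with earlier results of these data known, so no list is independent support. Of 822 listed symbols 821 matched. Genes named are the top 20 by peaks within 100 kb and by body peaks, those at the 30 peaks nearest to boundaries, at the 10 widest peaks, the 10 closest pairs, the runs of 4 or more and the 5 farthest peaks, list members with a peak in the body or within 10 kb, and families with most members or the highest shares; other genes of the lists and runs were named after their values were seen. One item that this rule names is not reported here.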

Additional observations from a re-analysis of the deposited data

Results flagged for a closer look

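Peaks outside the analysed set stood in both stretches that were left out. On chromosome 11, in a stretch starting at 3184453, the list had 20 peaks with a median width of 162 bp. On chromosome 17, in a stretch starting at 39843356, it had 5 peaks with a median width of 640 bp, beside 184 bp over the analysed peaks. These are signals in data that no comparison above uses. Whether they mark GATA2 binding was not tested.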

How the results depend on the processing

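With genes of every kind in place of protein-coding genes, 9.73% of peaks lay within 1 kb of a boundary against 5.55%, 53.5% inside genes against 43.2%, and 4.7% in deserts against 21.7%, since more genes are counted. With starts in place of both boundaries 3.78% lay within 1 kb. The 2602 genes with a peak within 100 kb became 785 for the body and 10 kb, 1071 for the nearest gene and 1489 with peaks of at least the median width. Runs of 3 or more numbered 54 with gaps of up to 50 kb and 4 with the wider peaks, against 32, and 22 with gaps of up to 10 kb. Of the 31 lists, 5, 25 and 13 kept their count within 1.5 times for the body and 10 kb, the nearest gene and the wider peaks. Keeping all rows, or measuring from the peak's edge, moved none of these shares beyond its interval. The GATA word was in 55.0% of 20 windows mostly under a peak. No paired analysis was possible because each line has 1 list that carries no replicate number. A single list without scores or depth limits every count here to this list.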
